A study of Mus musculus with 23 samples.

Results

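The data described here are the 5 RNA-seq libraries of 1 line of mouse embryonic stem cells, 3 of cells kept in 2iL and 2 of cells moved to FA for 48 hours, out of 23 libraries in all. The series concerns ERF, an ETS-family transcriptional repressor that ERK phosphorylates, and its title places ERF at the exit from the rosette stage of pluripotency. All lines are of the Raslox/lox background, which is H-Ras-/- and N-Ras-/-, carries a lox/lox Ras allele and expresses a tamoxifen-inducible Cre recombinase (Ubiq-CreERT2). The 5 libraries are of cells with wild-type ERF that received no 4-hydroxytamoxifen, called the reference line below, so by the labels the lox/lox Ras allele was not deleted, while the other deletions are in both media. The other 18 libraries, of cells with RAS deleted by 6 days of 4-hydroxytamoxifen, of ERF-knockout cells and of cells with both, 3 in each medium, enter where the reference line is compared with them.

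2iL is a serum-free N2B27 medium with the MEK inhibitor PD0325901, the GSK3 inhibitor CHIR99021 and the cytokine LIF, which holds mouse embryonic stem cells in the naive state of the pre-implantation epiblast. FA is N2B27 with 12 ng/ml FGF2, 20 ng/ml Activin A and knockout serum replacement on fibronectin-coated plates, which turns naive cells into epiblast-like cells, a formative state close to the early post-implantation epiblast. The change of medium therefore removes MEK inhibition, GSK3 inhibition and LIF and adds FGF and Activin signals and a new matrix at the same time, and these cannot be told apart here. In FGF signalling the ligand activates its receptor, which acts through RAS, RAF, MEK and ERK to switch on target genes, among them the Sprouty and Dusp genes that dampen the pathway. Activin, like Nodal, acts through SMAD2 and SMAD3, while LIF acts through STAT3 to keep naive genes active.

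The 5 libraries held 17222023 to 29874207 counts, of which the most abundant transcript took 21.7% to 26.6%. The labels do not say whether replicates are separate cultures, so p-values measure the spread between libraries within the 8 groups of the 23 fitted together, which may be technical. No pair of libraries differed by as little as sampling noise: the chi-square per degree of freedom was 3.7 between replicates 2 and 3 in 2iL, 15.9 and 22.4 between replicate 1 and these, and 21.8 between the FA libraries. Genes on chromosome 8 stood higher in both libraries numbered 1, by a median of 0.30 in 2iL and 0.32 in FA on the log2 scale against the median library of the medium over 581 genes, and also in replicate 1 of the RAS-deleted ERF wild-type line (0.28 and 0.22). The other 19 libraries lay between -0.059 and 0.0069, and no other chromosome of the reference libraries left the range -0.053 to 0.061. Of 1021 genes tested on chromosome 8, 252 were called between the media, or 24.7%. Erf, the gene of the series, stood at 70.6, 76.4 and 85.7 CPM (counts relative to library size after TMM adjustment) in 2iL and 69.8 and 56.5 CPM in FA and did not pass the test (log2 fold change -0.29 ± 0.15, adjusted p 0.107). Here and below the value after ± is the SE of the log2 fold change, FA minus 2iL, and the adjusted p is that of edgeR's quasi-likelihood test with Benjamini-Hochberg adjustment over all tested genes. Hras and Nras, which the labels give as deleted, both had counts, and whether these lie outside the deleted parts was not tested. Hras had 14.3, 15.4 and 14.9 CPM in 2iL and 25.2 and 25.6 CPM in FA (log2 fold change 0.77 ± 0.11, adjusted p 1.77e-06). Nras had 31.7, 40.3 and 39.7 CPM and 26.3 and 26.4 CPM (log2 fold change -0.50 ± 0.62, adjusted p 0.537). Markers of fibroblast feeder cells were low: the 7 tested of 10 summed to 4.065 to 5.044 TPM (a level per transcript length) in 2iL and 3.432 to 3.952 TPM in FA. Pdgfrb fell from 16.3, 15.4 and 16.8 CPM to 4.03 and 5.78 CPM (log2 fold change -1.73 ± 0.22, adjusted p 4.94e-07). Another 4 of these markers, Col6a1, Col6a2, Col1a2 and Dcn, were called higher in FA from at most 1 count per library in 2iL, and the list's median log2 fold change was 4.40, or 2.07 with floor genes at their bound. Col6a2 stood at 2.12 and 1.75 CPM in FA, at least 13.7-fold higher (adjusted p 1.76e-08). Col1a2 stood at 1.26 and 0.852 CPM (at least 7.49-fold, adjusted p 7.68e-06). Col6a1 stood at 0.432 and 1.09 CPM (at least 5.39-fold, adjusted p 1.68e-05) and Dcn at 0.612 and 0.568 CPM (at least 4.18-fold, adjusted p 0.000235). Their part in the other results was not tested. Thy1 was not called (log2 fold change -0.28 ± 0.33, adjusted p 0.501). Naive markers Zfp42, Klf4 and Esrrb were high in 2iL and epiblast-like markers Fgf5, Otx2 and Dnmt3b high in FA (values below). Pou5f1 and Sox2, counted as markers of both states, were lower in FA, and Sox2 was called lower. The mesoderm markers T, Mixl1 and Tbx6 stayed at or below 1.05 CPM in all 5 libraries. In the mesoderm and definitive endoderm list, which holds these 3 genes, 6 of 14 tested genes were called higher (values below).

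Of 20372 genes tested, 4891 were called, meaning an edgeR adjusted p below 0.05 and at least a 2-fold difference, which is 24% of genes tested. Higher in FA were 13.2% and lower 10.8% of genes tested, and the median log2 fold change over all genes was 0.03. The counts called in the lists below are to be read beside these shares, near which several of them lie. Of the calls, 2364 were at least 4-fold and 606 at least 16-fold by the fitted value, and in 4820 the 5 libraries did not overlap, where 60.7% of all tested genes did not overlap. Among the 12 largest rises by the fitted value, for genes of at least 5 CPM, were Car4, Cubn, Hoxb1, Lhx1, Gbp2, Ccdc194, Lefty1, Fgf5, Vrtn, H19 and Spon1. Car4 (a membrane-bound carbonic anhydrase), Hoxb1 (an anterior-posterior patterning factor), Lhx1, Gbp2 (an interferon-inducible GTPase) and Ccdc194 had no count in any 2iL library. A floor of 3 counts per library gives lower bounds of 499-fold for Car4, 73.4-fold for Hoxb1, 66.7-fold for Lhx1, 58.7-fold for Gbp2 and 57.9-fold for Ccdc194. The fitted value of a gene at or near 0 counts depends on the prior count, so by their bounds Hoxb1, Lhx1, Gbp2, Ccdc194 and Spon1 are not shown to exceed Dnmt3l (86.5-fold), nor these 5 genes and Vrtn to exceed Lefty2 (237-fold). Hoxb1 reached 10.6 and 10.1 CPM in FA (adjusted p 1.27e-09), a spread between the libraries far smaller than that of Gbp2 at 5.94 and 10.6 CPM (adjusted p 5.56e-05). Vrtn and Spon1 were also at or near 0 in 2iL. Vrtn, a gene known for vertebral number, went from at most 2 counts to 36.2 and 25 CPM (at least 217-fold, adjusted p 6.99e-07). Spon1, a secreted matrix protein, reached 5.07 and 6.68 CPM (at least 41.7-fold, adjusted p 1.68e-09).

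The 12 largest falls by the fitted value were Ly6a, Aqp3, Bhmt, Lrrc31, Ffar3, Jam2, Dcdc2a, Slc6a7, Klf4, Aspa, Ly6g6e and Spic. Aqp3, a water and glycerol channel, had 341, 229.8 and 243 CPM in 2iL and 1.26 and 1.04 CPM in FA, 232-fold lower (log2 fold change -7.86 ± 0.62, adjusted p 2.43e-08). Jam2, a junctional adhesion molecule, fell from 132, 142 and 151 CPM to 1.69 and 1.37 CPM, 91.1-fold (log2 fold change -6.51 ± 0.25, adjusted p 5.34e-14). For both genes the FA libraries lay close together. Bhmt, which remethylates homocysteine with betaine, fell from 39.3, 38.6 and 41.2 CPM to 0.252 and 0.521 CPM (log2 fold change -6.72 ± 0.53, adjusted p 8.22e-09). Aspa, which releases acetate from N-acetylaspartate, fell from 13.7, 17.1 and 17.7 CPM to 0.324 and 0.142 CPM (log2 fold change -6.01 ± 0.41, adjusted p 6.43e-11). Ly6a, which encodes the surface antigen Sca-1, went from 36.7, 31.1 and 34.7 CPM to at most 3 counts, at least 273-fold lower (adjusted p 1.16e-06). The short-chain fatty acid receptor gene Ffar3 went from 10.6, 8.27 and 8.41 CPM to at most 3 counts, at least 72.7-fold lower (adjusted p 8.45e-10). In each of these 6 genes the media did not overlap. Lrrc31, Dcdc2a, Slc6a7 (a proline transporter), Ly6g6e and Spic (an ETS-family factor) fell between 52.3-fold and 104-fold, from levels of 6.78 to 21.1 CPM in 2iL.

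**Figure D1:**
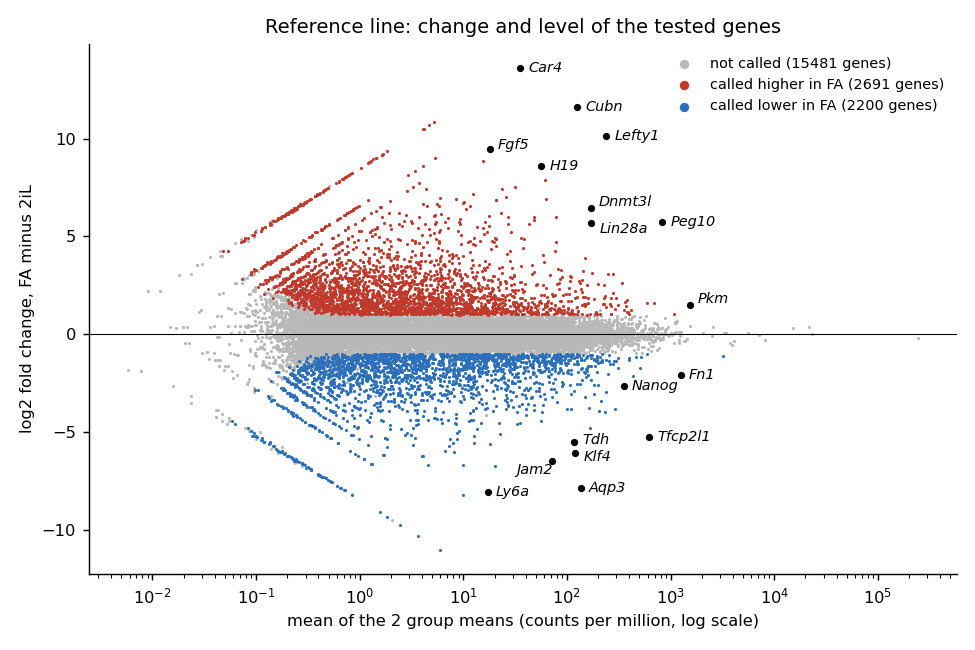
Each point is 1 of 20372 tested genes, with the mean of both group means in CPM on a log axis and the fitted log2 fold change (FA minus 2iL) on the other. Red points are the 2691 genes called higher in FA, blue points the 2200 called lower and grey points the genes not called. The straight diagonal lines of points are genes at 0 counts in 1 medium, whose fitted fold depends on the prior count.

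The naive network, the transcription factors and their companions that sustain the ground state, was almost wholly lower in FA. Of its 18 members, all tested, 16 were called lower and 1 higher, against 10.8% and 13.2% of all genes tested, with a median log2 fold change of -3.02 against 0.03 over all genes. Klf4, a factor that LIF maintains, had 219, 241 and 253 CPM in 2iL and 3.56 and 3.36 CPM in FA, 68.4-fold lower (log2 fold change -6.10 ± 0.18, adjusted p 1.97e-16). Tfcp2l1, a target of both LIF and GSK3 inhibition, had 1028, 1248 and 1329.8 CPM and 28.4 and 34.3 CPM, 38.4-fold lower (log2 fold change -5.26 ± 0.21, adjusted p 1.74e-13). In both genes the replicates of a medium lay close together and far from the other medium. Prdm14, which represses FGF signalling and DNA methyltransferases, fell from 31.5, 33.8 and 40.4 CPM to 0.791 and 0.616 CPM (log2 fold change -5.61 ± 0.30, adjusted p 3.38e-12). The nuclear receptor genes followed. Nr5a2 fell 24.5-fold (log2 fold change -4.61 ± 0.26, adjusted p 2.86e-11). Esrrb fell 16-fold, from 449.6, 420.0 and 437 CPM to 31.9 and 22.3 CPM (log2 fold change -4.00 ± 0.17, adjusted p 1.66e-13). Nanog kept a level of 93.6 and 100.1 CPM in FA against 584, 609 and 626 CPM in 2iL (log2 fold change -2.65 ± 0.18, adjusted p 2.95e-10), so the members differed in how much remained. Klf5 and Pecam1 showed the smallest called falls, 3.98-fold and 3.92-fold. Klf2 fell 5.74-fold from 151, 107 and 114 CPM to 27.4 and 15.5 CPM, being higher in the library numbered 1 in each medium and lying on chromosome 8. Dppa5a, the uncalled member, had 746, 859 and 882 CPM and 396 and 522 CPM, which did not overlap but differed 1.81-fold (log2 fold change -0.85 ± 0.15, adjusted p 5.11e-05). Gbx2, a homeobox factor that LIF and STAT3 are known to induce in naive cells, went the other way, from 3.54, 3.93 and 6.09 CPM to 32.3 and 28.5 CPM, 6.75-fold higher (log2 fold change 2.75 ± 0.25, adjusted p 1.42e-08). In all 18 members the media did not overlap, as in 60.7% of all tested genes, so leaving out 1 library could hardly reverse a direction. In bulk samples fewer cells with a transcript and less of it per cell cannot be told apart.

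In the LIF and STAT3 list 9 of 20 tested members were called lower and none higher, with a median of -0.93. The summed level per length of the list dropped from 848.8 to 977 TPM in 2iL to 266.6 to 268.3 TPM in FA. The largest drops in mean level were those of Spp1 (295 to 28.2 TPM), Tfcp2l1 (128 to 3.25 TPM) and Klf4 (92.5 to 1.68 TPM). Klf4, Klf5 and Tfcp2l1 are also members of the naive network list, so their calls count in both. Stat3 itself fell from 82, 73.9 and 68.9 CPM to 17.1 and 19.3 CPM, 4.14-fold (log2 fold change -2.05 ± 0.12, adjusted p 1.65e-12). The receptor gene Lifr fell from 49, 57.4 and 60.5 CPM to 27.7 and 23.9 CPM (log2 fold change -1.11 ± 0.15, adjusted p 2.09e-06). Stat3 and Lifr were thus called lower, while Il6st, Jak1, Jak2 and Tyk2 of the same list were lower by under 2-fold and not called. Socs3, the inhibitor that STAT3 induces against its own pathway, had 53.5, 49.2 and 47.9 CPM in 2iL and 4.43 and 3.27 CPM in FA, 12.9-fold lower (log2 fold change -3.69 ± 0.24, adjusted p 2.48e-10). Bcl3, a co-factor of NF-kappaB that is also a LIF target, had 37.5, 48.2 and 46.5 CPM and 1.15 and 1.37 CPM, 35-fold lower (log2 fold change -5.13 ± 0.19, adjusted p 2.89e-15). The media did not overlap in Stat3, Lifr, Socs3 or Bcl3, and nor did they in 4820 of all 4891 calls. Pim1, a kinase gene that is a STAT3 target elsewhere, was slightly higher in FA at 250.0 and 272 CPM against 206, 188 and 177 CPM and was not called (log2 fold change 0.46 ± 0.14, adjusted p 0.00886).

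Among the general pluripotency factors, which naive and primed cells share, 3 of 10 were called higher and 1 lower (median 0.87). Pou5f1, which encodes OCT4, had 545, 583 and 604 CPM in 2iL and 367 and 399 CPM in FA, a 1.51-fold difference that was below the 2-fold minimum (log2 fold change -0.59 ± 0.091, adjusted p 9e-06). Sox2 fell 3.13-fold, from 229, 288 and 260.5 CPM to 72.9 and 93 CPM (log2 fold change -1.65 ± 0.13, adjusted p 6.39e-10). Lin28a, an RNA-binding protein that blocks let-7 maturation, rose from 3.71, 7.74 and 8.45 CPM to 305 and 367 CPM, 52-fold (log2 fold change 5.70 ± 0.40, adjusted p 5.19e-09). Utf1 rose from 34.8, 35.1 and 35.4 CPM to 214 and 268 CPM (log2 fold change 2.78 ± 0.12, adjusted p 3.45e-14). Replicate 1 in 2iL was the lowest library for Lin28a. In the Lin28 and let-7 list as a whole 3 of 12 were called higher and 1 lower (median 0.54). The paralog Lin28b rose 11.9-fold to 37.7 and 28.1 CPM (log2 fold change 3.57 ± 0.19, adjusted p 8.43e-13). Arid3b rose 2.03-fold and Arid3a fell 2.23-fold (log2 fold change -1.15 ± 0.13, adjusted p 6.99e-08). The let-7 target Igf2bp1 was not called (log2 fold change 0.58 ± 0.12, adjusted p 0.000489). Arid3b lay at the 2-fold minimum and dropped below it without replicate 1 of either medium.

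Of the 19 formative and primed epiblast genes, all tested, 14 were called higher and 2 lower, with a median of 3.09. Fgf5, the standard marker of the epiblast-like state, had at most 1 count per library in 2iL and 30.7 and 41 CPM in FA, at least 254-fold higher (adjusted p 7.73e-07). Otx2, the factor that directs enhancer use on exit from the naive state, rose from 4.66, 5.36 and 4.46 CPM to 21.3 and 30.1 CPM, 5.33-fold (log2 fold change 2.41 ± 0.21, adjusted p 3.85e-09). Sox11 had 2.31, 3.39 and 2.14 CPM and 75.3 and 73.1 CPM, 29-fold higher (log2 fold change 4.86 ± 0.18, adjusted p 1.21e-14). Lef1, a partner of beta-catenin, had 1.79, 1.73 and 1.3 CPM and 107 and 79.8 CPM (log2 fold change 5.86 ± 0.59, adjusted p 5.23e-07). Wnt8a, a ligand of the early epiblast, had 0.315, 0.238 and 0.325 CPM and 22.3 and 14 CPM (log2 fold change 5.91 ± 0.67, adjusted p 8.72e-07). Each rose in both FA libraries above every 2iL library, and the media did not overlap in 4820 of all 4891 calls. Replicate 1 in FA was the higher one for Lef1 and Wnt8a and replicate 2 for Fgf5 and Otx2. Foxd3, a repressor of naive enhancers, fell from 17.3, 28.1 and 30.9 CPM to 7.38 and 7.67 CPM (log2 fold change -1.75 ± 0.19, adjusted p 1.22e-07). Plagl1, an imprinted zinc-finger gene, fell from 70.3, 86.8 and 112 CPM to 5.97 and 6.06 CPM (log2 fold change -3.90 ± 0.43, adjusted p 1.28e-06). Tead2 was not called (log2 fold change 0.48 ± 0.074, adjusted p 9.59e-06).

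**Figure D2:**
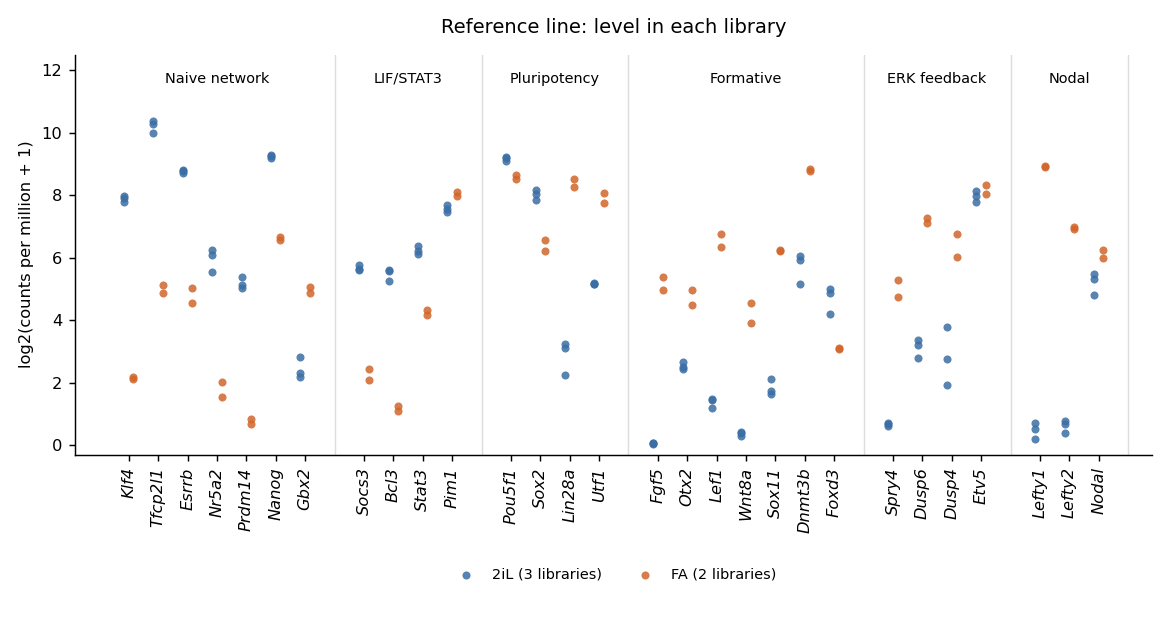
Each dot is 1 library, 3 in 2iL (blue) and 2 in FA (orange), at log2(CPM + 1), for 29 genes in 6 groups. The media do not overlap for any gene shown but Etv5, and they do not overlap for 60.7% of all tested genes. Gbx2, Pim1 and Foxd3 go against the other members of their groups.

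Of the FGF ligands, receptors and binding proteins 9 of 14 tested were called higher and none lower (median 1.80), while Fgf2 itself, supplied in the medium, was too low to test. Among ligands Fgf8 rose from 0.315, 0.298 and 0.232 CPM to 11 and 12.2 CPM (log2 fold change 5.33 ± 0.57, adjusted p 4.14e-07). Fgf15 rose from 1.16, 0.357 and 0.79 CPM to 13.3 and 8.76 CPM (log2 fold change 3.75 ± 0.64, adjusted p 0.000127). Fgf4, the ligand that naive cells make for themselves, was lower at 118 and 125 CPM against 225, 183 and 171 CPM and was not called (log2 fold change -0.67 ± 0.13, adjusted p 0.000151). Fgfbp1, which carries FGFs in the extracellular space, rose from 0.315, 0.774 and 0.604 CPM to 16.8 and 19.7 CPM (log2 fold change 5.09 ± 0.49, adjusted p 1.62e-07). Among receptors Fgfr2 rose 7.65-fold, from 1.89, 2.74 and 4.04 CPM to 24.5 and 18.8 CPM (log2 fold change 2.94 ± 0.31, adjusted p 4.15e-07). The more abundant Fgfr1 overlapped between the media (log2 fold change 0.33 ± 0.14, adjusted p 0.0527).

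In the cascade from RAS to ERK, of 21 genes tested, 2 were called higher and 2 lower (median 0.00), against 13.2% and 10.8% of all tested genes. Braf rose from 74.2, 66.8 and 67.1 CPM to 184 and 177 CPM (log2 fold change 1.38 ± 0.091, adjusted p 1.75e-11). Mapk3, which encodes ERK1, rose 2.1-fold (log2 fold change 1.07 ± 0.099, adjusted p 5.33e-09). Mapk3 was below the 2-fold minimum without FA replicate 2. Mras, a RAS-related GTPase that helps to activate RAF, fell from 21, 20.2 and 24.3 CPM to 0.935 and 1.09 CPM, 21.6-fold (log2 fold change -4.44 ± 0.29, adjusted p 7.05e-11). The scaffold gene Ksr1 fell 2.37-fold (log2 fold change -1.25 ± 0.19, adjusted p 1.65e-05).

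Feedback inhibitors of ERK, which the pathway itself induces, were called higher in 7 of 13 tested members and lower in none (median 1.00). Spry4 rose from 0.63, 0.536 and 0.604 CPM to 38.3 and 25.6 CPM, 53.1-fold (log2 fold change 5.73 ± 0.28, adjusted p 1.22e-13). Dusp6, the phosphatase of cytoplasmic ERK, rose from 5.92, 8.21 and 9.24 CPM to 138 and 155 CPM, 19-fold (log2 fold change 4.25 ± 0.24, adjusted p 4.81e-11). Dusp4 rose from 12.8, 5.83 and 2.79 CPM to 107 and 64.3 CPM (log2 fold change 3.54 ± 0.37, adjusted p 6.01e-07), with the library numbered 1 the highest in each medium, and lies on chromosome 8. Spred1 and Spred3 rose 4.01-fold and 3.52-fold, but Spry2 was at 32.3, 43.8 and 46 CPM and 64.9 and 60.5 CPM and was not called (log2 fold change 0.63 ± 0.15, adjusted p 0.00125).

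ETS factors, some of them nuclear targets of the same cascade, were called higher in 2 of 12 (median -0.23), near the 13.2% of all tested genes. Etv1 rose from 4.45, 13.3 and 14.9 CPM to 47.4 and 50 CPM (log2 fold change 2.19 ± 0.33, adjusted p 3.3e-05). Ets1 rose from 0.735, 1.37 and 0.883 CPM to 9.28 and 7.01 CPM (log2 fold change 3.08 ± 0.24, adjusted p 4.19e-10). Etv5, a common readout of FGF signalling, overlapped between the media at 218, 249 and 279 CPM and 265 and 320.3 CPM (log2 fold change 0.24 ± 0.12, adjusted p 0.103). Without 2iL replicate 2 or FA replicate 2, 1 ETS gene was called lower. Of 11 immediate early genes tested 1 was called higher and 1 lower (median 0.38), against 13.2% and 10.8% of all tested genes. Egr1 had 0.875, 0.476 and 0.557 CPM in 2iL and 6.94 and 1.47 CPM in FA (log2 fold change 2.69 ± 0.48, adjusted p 7.22e-05), and its call rested on FA replicate 1, without which the log2 fold change was 1.13 and the adjusted p 0.0592. Fos fell from 2.7, 1.9 and 2.14 CPM to 0.504 and 0.474 CPM (log2 fold change -2.20 ± 0.30, adjusted p 2.11e-06). Jund was not called (log2 fold change 0.88 ± 0.29, adjusted p 0.0188). Rises numbered 2 without 2iL replicate 1, and falls 2 without 2iL replicate 3 or FA replicate 1.

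Nodal and Activin genes gave 6 of 19 tested called higher and 2 lower (median 0.22). Lefty1, both a target and an inhibitor of the pathway, rose from 0.63, 0.417 and 0.139 CPM to 476 and 486 CPM, 1139-fold (log2 fold change 10.15 ± 0.23, adjusted p 1.19e-17). Lefty2 rose from 0.315, 0.714 and 0.604 CPM to 126 and 119 CPM, 237-fold (log2 fold change 7.89 ± 0.30, adjusted p 1.91e-13). The 2 genes are near-identical copies, so reads may have been shared between them. Both are textbook targets of Nodal. Skil, which encodes a SMAD co-repressor, rose from 62.8, 52.3 and 60.1 CPM to 322 and 367 CPM (log2 fold change 2.56 ± 0.16, adjusted p 4.03e-11). The SMAD partner Foxh1 rose 2.6-fold and the receptor Acvr2b 2.05-fold, the latter below the minimum without 2iL replicate 1 or FA replicate 2. Nodal itself had 26.8, 38.9 and 44.1 CPM and 63.2 and 75.7 CPM, just under the minimum (log2 fold change 0.93 ± 0.14, adjusted p 1.27e-05). Its co-receptor Tdgf1 was not called either (log2 fold change 0.73 ± 0.14, adjusted p 0.000227). The convertase gene Pcsk6, whose product processes Nodal, fell from 107, 138 and 135 CPM to 26.3 and 24.4 CPM (log2 fold change -2.32 ± 0.12, adjusted p 3.77e-13). Fst, an Activin-binding inhibitor, fell 3.07-fold (log2 fold change -1.62 ± 0.38, adjusted p 0.00106).

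In the BMP and Id list 4 of 19 tested were called higher and 4 lower (median -0.11). The Id genes, direct targets of BMP, did not move as 1 group. Id4 fell from 3.78, 5.77 and 4.23 CPM to 0.504 and 0.331 CPM (log2 fold change -3.40 ± 0.29, adjusted p 1.08e-09). Id2 fell from 8.89, 11.5 and 9.29 CPM to 2.19 and 1.75 CPM (log2 fold change -2.31 ± 0.21, adjusted p 3.51e-09). Id1 rose from 0.49, 0.119 and 0.325 CPM to 2.05 and 0.9 CPM (log2 fold change 2.15 ± 0.42, adjusted p 0.000162). Bmp7 fell 4.06-fold (log2 fold change -2.02 ± 0.21, adjusted p 6.03e-08). The receptor gene Bmpr1b rose from at most 1 count to 0.827 and 0.947 CPM (at least 6.29-fold, adjusted p 1.08e-05). The inhibitory SMAD gene Smad7 overlapped (log2 fold change -0.11 ± 0.12, adjusted p 0.469).

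Wnt genes were called higher in 7 and lower in 3 of 22 tested (median 0.10). Besides Lef1 and Wnt8a, the R-spondin receptor gene Lgr4 rose from 27.9, 23.7 and 24.6 CPM to 188 and 198 CPM (log2 fold change 2.92 ± 0.12, adjusted p 7.87e-15). The Wnt antagonist Dkk1 rose from 0.28, 0.238 and 0.279 CPM to 6.84 and 1.94 CPM (log2 fold change 4.02 ± 0.47, adjusted p 2.18e-07), with replicate 1 well above replicate 2. The 3 calls lower were Cdx1, Notum and Sp5, known targets of beta-catenin, as are Lef1, Nkd1 and Dkk1, which were called higher. Cdx1 fell from 29.6, 24.9 and 30.7 CPM to 1.69 and 0.663 CPM (log2 fold change -4.53 ± 0.27, adjusted p 6.3e-12). Notum fell from 6.44, 8.33 and 11 CPM to 2.84 and 1.18 CPM (log2 fold change -2.04 ± 0.30, adjusted p 9.04e-06). Sp5 fell from 0.735, 1.73 and 3.25 CPM to at most 3 counts, at least 15.2-fold (adjusted p 0.000135). Ctnnb1, the beta-catenin gene, had 383, 453 and 469 CPM and 428 and 450.1 CPM (log2 fold change 0.014 ± 0.078, adjusted p 0.896).

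DNA methylation genes, whose activity rises on exit from the naive state, were called higher in 4 and lower in 2 of 15 (median 0.10). The de novo enzymes were among the rises. Dnmt3b rose from 34.7, 59.3 and 65.4 CPM to 437 and 463 CPM (log2 fold change 3.09 ± 0.32, adjusted p 5.21e-07). Dnmt3a rose from 56.6, 42 and 41.2 CPM to 295 and 235 CPM (log2 fold change 2.50 ± 0.13, adjusted p 5.18e-13). Their catalytically inactive partner Dnmt3l rose from 3.36, 3.99 and 4.37 CPM to 276 and 394 CPM, 86.5-fold (log2 fold change 6.43 ± 0.34, adjusted p 8.97e-11). The base-excision gene Tdg rose 2.05-fold. Zfp57, which protects methylation at imprinted regions, fell from 304, 312 and 308 CPM to 80.7 and 77.3 CPM (log2 fold change -1.96 ± 0.11, adjusted p 9.5e-13). Its co-repressor Trim28 overlapped at 726, 1013 and 1137 CPM and 907 and 957 CPM (log2 fold change -0.04 ± 0.12, adjusted p 0.803). The Polycomb list had 4 of 16 called lower and none higher (median -0.55). Suz12, a subunit of the PRC2 complex, fell from 376, 478 and 468 CPM to 175 and 199 CPM (log2 fold change -1.24 ± 0.14, adjusted p 1.37e-07). Jarid2 was not called (log2 fold change 0.21 ± 0.081, adjusted p 0.0316).

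Imprinted genes, expressed from 1 parental allele, were called higher in 18 of 26 and lower in 1 (median 1.43), and the summed level of the list went from 726.1 to 843.1 TPM in 2iL to 1393 to 1713 TPM in FA. H19, a long non-coding RNA, rose from 0.21, 0.179 and 0.465 CPM to 126 and 98.2 CPM, 386-fold (log2 fold change 8.59 ± 0.63, adjusted p 1.04e-08). Igf2, the growth factor gene beside it, rose from 1.4, 0.893 and 0.883 CPM to 11.1 and 13.3 CPM (log2 fold change 3.48 ± 0.31, adjusted p 4.89e-09). Peg10, a retrotransposon-derived gene, rose from 31.7, 30.1 and 31 CPM to 1714 and 1531 CPM, 52.4-fold (log2 fold change 5.71 ± 0.20, adjusted p 3.33e-14). Mest rose from 18.4, 15.4 and 15.2 CPM to 177 and 141 CPM (log2 fold change 3.27 ± 0.18, adjusted p 1.38e-11). The cell cycle inhibitor gene Cdkn1c rose from 4.69, 4.94 and 4.83 CPM to 39.2 and 44.6 CPM (log2 fold change 3.12 ± 0.22, adjusted p 5e-10). None of these 5 overlapped between media, and nor did 4820 of all 4891 calls. Genes expressed from the maternal allele (H19, Cdkn1c) and from the paternal allele (Igf2, Peg10, Mest) were both among these 5. Rian was not called (log2 fold change 0.56 ± 0.14, adjusted p 0.00313). Plagl1 was the list's only called fall, and 3 of its 26 members had a negative log2 fold change. Without FA replicate 1 the count of rises was 14 and without 2iL replicate 1 it was 15, and without FA replicate 2 the falls were 2.

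Germline genes that DNA methylation keeps silent in somatic cells were split, with 5 of 20 called higher and 7 lower (median -0.15). Dazl, a translational regulator of germ cells, fell from 102, 103 and 91.4 CPM to 9.21 and 12.8 CPM (log2 fold change -3.17 ± 0.26, adjusted p 1.01e-08). Rpl10l fell 3.02-fold (log2 fold change -1.60 ± 0.13, adjusted p 4.39e-10). Tdrd1, of the piRNA pathway, rose from 0.63, 0.476 and 0.511 CPM to 3.89 and 7.67 CPM (log2 fold change 3.37 ± 0.32, adjusted p 6.92e-09). Mael, of the same pathway, rose from 2.38, 3.45 and 3.48 CPM to 10.3 and 24.3 CPM (log2 fold change 2.48 ± 0.27, adjusted p 2.44e-07). Tex19.1 overlapped between media (log2 fold change 0.18 ± 0.24, adjusted p 0.552). All 20 members were higher in FA replicate 2 than in FA replicate 1, by a median of 0.67 on the log2(CPM + 1) scale, where 46.1% of all genes were higher in replicate 1. Without FA replicate 2 the counts were 2 higher and 9 lower, and without 2iL replicate 3 there were 3 higher. Promoters of such genes often carry the E-box CACGTG, and 11 of the 19 members with a RefSeq promoter (GRCm38.p6, 250 bases before to 50 after the start, either strand) held it, against 8.09% of 27025 genes. Of these 11, 5 were called higher, 2 lower and 4 were not called, so members with the letters were found in both directions. Stretches upstream of the start that hold the E-box, in capitals and read in the direction of the gene, are shown for both risers and for Hormad1, a meiotic chromosome gene that fell 2.6-fold (log2 fold change -1.38 ± 0.12, adjusted p 1.05e-09).
Tdrd1 (chr19:56826168-56826208, plus strand): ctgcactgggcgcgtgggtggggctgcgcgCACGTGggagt
Mael (chr1:166238932-166238994, minus strand): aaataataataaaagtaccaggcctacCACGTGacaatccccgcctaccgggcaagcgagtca
Hormad1 (chr3:95559627-95559676, plus strand): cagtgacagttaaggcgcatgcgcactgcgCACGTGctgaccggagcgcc

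Primitive and visceral endoderm genes were called higher in 12 of 15 tested and lower in none (median 2.98), with Ttr and Afp too low to test. Cubn, the receptor cubilin of absorptive epithelia, had at most 2 counts per library in 2iL and 339.9 and 157 CPM in FA, at least 1763-fold higher (adjusted p 2.48e-10). Its partner in endocytosis Dab2 rose from 1.96, 2.38 and 2.46 CPM to 83.4 and 54.5 CPM (log2 fold change 4.94 ± 0.32, adjusted p 3.4e-10). Sox7, an endoderm factor, rose from 0.105, 0.238 and 0.139 CPM to 12.4 and 8.57 CPM (log2 fold change 6.07 ± 0.52, adjusted p 2.48e-09). Gata6 and Gata4 are the defining factors of the primitive endoderm. Gata6 rose from 6.86, 3.69 and 4.37 CPM to 24.9 and 13.6 CPM (log2 fold change 1.93 ± 0.29, adjusted p 1.37e-05). Gata4 rose from 7, 7.2 and 3.53 CPM to 22.4 and 14.3 CPM (log2 fold change 1.64 ± 0.38, adjusted p 0.00158). Sox17, the other defining marker, had 3.33, 1.01 and 1.39 CPM and 5.11 and 1.8 CPM and was not called (log2 fold change 0.82 ± 0.44, adjusted p 0.134), with FA replicate 1 above all other libraries. The basement membrane gene Col4a1 rose from 30.7, 22.7 and 18.2 CPM to 256 and 122 CPM (log2 fold change 2.98 ± 0.51, adjusted p 0.000137). Lamb1, another, rose from 45.2, 45.3 and 45.4 CPM to 249 and 204 CPM (log2 fold change 2.32 ± 0.25, adjusted p 5.7e-07). Sparc was not called (log2 fold change -0.78 ± 0.21, adjusted p 0.0045). Col4a1 and Col4a2 lie on chromosome 8, and Col4a2 was not called without FA replicate 1 (log2 fold change 1.35, adjusted p 0.0961). Of the 15 members 14 were higher in FA replicate 1 than in FA replicate 2, by a median of 0.71 on the log2(CPM + 1) scale, and the summed level was 112.1 to 117.8 TPM in 2iL but 169.4 and 289.1 TPM in the FA libraries. Without FA replicate 1 there were 11 calls and without FA replicate 2 there were 13. The part of this library difference in the calls was not tested further.

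Of the mesoderm and definitive endoderm regulators 6 of 14 tested were called higher and 2 lower (median 1.20, or 1.08 with genes at the floor set to their bound). Eomes rose 2.53-fold to 14.4 and 18.2 CPM (log2 fold change 1.34 ± 0.19, adjusted p 4.48e-06). Hand1 rose 13.6-fold to 6.44 and 8.1 CPM (log2 fold change 3.76 ± 0.41, adjusted p 7.22e-08). Foxa2 rose to 4.53 and 2.65 CPM (log2 fold change 4.08 ± 0.72, adjusted p 8.87e-05). Lhx1, an organiser and head-induction factor, reached 11.7 and 7.15 CPM (adjusted p 9.55e-10). Gsc, another organiser gene, fell from 8.72, 11.2 and 9.85 CPM to 0.54 and 0.758 CPM (log2 fold change -3.94 ± 0.34, adjusted p 1.94e-09).

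Trophoblast genes gave 5 higher and 5 lower of 14 (median -0.72). Tfap2c, which naive cells also express, fell from 102, 119 and 111 CPM to 8.74 and 14 CPM (log2 fold change -3.30 ± 0.18, adjusted p 3.68e-12). Tead4 fell 6.3-fold (log2 fold change -2.66 ± 0.15, adjusted p 2.39e-12). The keratins Krt8 and Krt18 rose 4.14-fold and 3.62-fold, but Krt18 was not called without FA replicate 2 (log2 fold change 1.49 against 1.86 with it, adjusted p 0.0578). Ascl2 was not called (log2 fold change -0.89 ± 0.29, adjusted p 0.0125).

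Early neural genes gave 3 higher and 3 lower of 10 tested (median 0.64). Sox1, on chromosome 8, rose from 12.9, 8.15 and 8.04 CPM to 39.5 and 38.4 CPM (log2 fold change 1.99 ± 0.16, adjusted p 8.12e-10). Pax6 rose from 0.525, 1.07 and 0.557 CPM to 8.35 and 9.14 CPM (log2 fold change 3.66 ± 0.35, adjusted p 1.58e-08). Hesx1 fell 4.63-fold (log2 fold change -2.21 ± 0.36, adjusted p 1.69e-05). Tubb3 was not called (log2 fold change 0.65 ± 0.22, adjusted p 0.0154). Without FA replicate 2 the neural falls numbered 1, and 2 without FA replicate 1 or 2iL replicate 1 or 2. Genes of the 2-cell-like state, a rare state in stem cell cultures, were called higher in 5 of 16 tested and lower in none (median 1.65, or 1.54 with floor genes at their bound). DESeq2 called 9 of them higher, edgeR without a filter on low counts 12, and a fit of the 5 reference libraries alone 9. Zscan4b rose from 0.735, 0.536 and 0.836 CPM to 8.81 and 3.27 CPM (log2 fold change 3.09 ± 0.82, adjusted p 0.00503). Tdpoz3 was at least 5.3-fold higher (adjusted p 0.00406). Neither was called without FA replicate 1 (fitted log2 fold change 2.17 and 2.24, adjusted p 0.126 and 0.152), and Zscan4f was not called (log2 fold change 1.71 ± 0.69, adjusted p 0.0515). All 16 were higher in 2iL replicate 1 than the mean of the other 2iL libraries and 14 were higher in FA replicate 1. The calls numbered 2 without FA replicate 1 and 3 without 2iL replicate 2 or 3. The Zscan4 copies are near-identical, so their reads may have been shared.

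**Figure D3:**
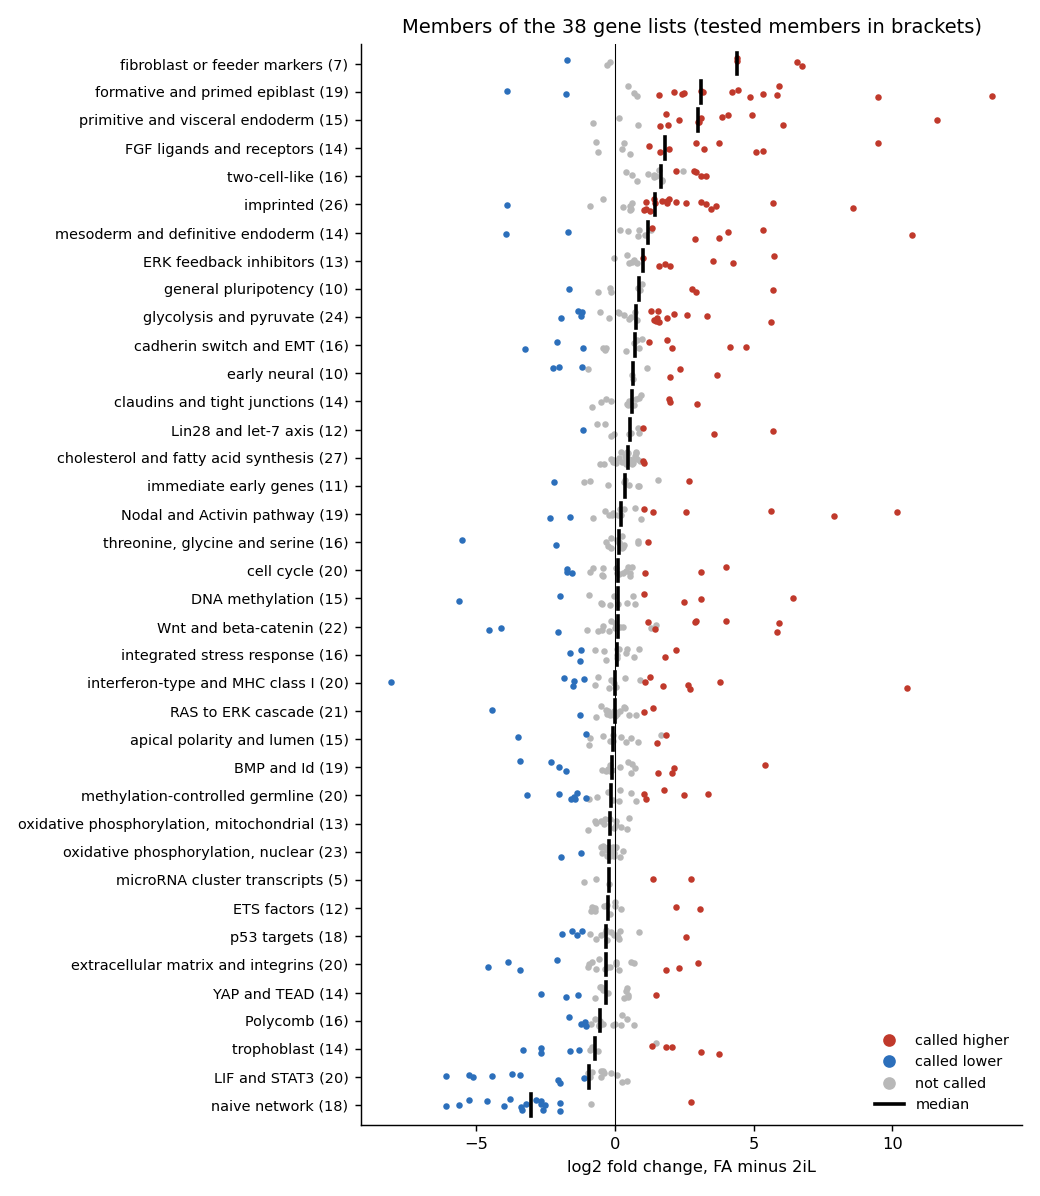
Each dot is a tested member of 1 of 38 gene lists, placed by its log2 fold change (FA minus 2iL), red if called higher, blue if called lower and grey if not called, with a bar at the list's median. The naive network lies lowest at -3.02 and the fibroblast or feeder markers highest at 4.40, or 2.07 with floor genes at their bound. The formative, endoderm, FGF, 2-cell-like and imprinted lists are among those on the positive side.

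Junction and matrix genes are the last structural groups. In the cadherin and EMT list 5 of 16 were called higher and 3 lower (median 0.74). Esrp1, an epithelial splicing factor, rose from 2.52, 0.833 and 0.697 CPM to 38 and 38.7 CPM (log2 fold change 4.72 ± 0.41, adjusted p 3.12e-08). Epcam, an epithelial adhesion gene, rose from 50.9, 31.6 and 30.3 CPM to 130.4 and 188 CPM (log2 fold change 2.07 ± 0.19, adjusted p 4.21e-08). The mesenchymal repressor gene Zeb2 rose from 0.49, 0.238 and 0.465 CPM to 7.74 and 7.06 CPM (log2 fold change 4.14 ± 0.52, adjusted p 1.84e-06). Its relative Zeb1 fell 2.24-fold (log2 fold change -1.17 ± 0.12, adjusted p 5.11e-08). Grhl3, an epithelial factor, fell from 25.1, 20.6 and 20.9 CPM to 2.37 and 2.27 CPM (log2 fold change -3.26 ± 0.15, adjusted p 5.13e-14). Cdh1, the E-cadherin gene, was not called, at 559.6, 329.8 and 324 CPM and 361 and 280.3 CPM (log2 fold change -0.33 ± 0.24, adjusted p 0.274), with 2iL replicate 1 far above the other 4 libraries.

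Claudins and tight junction genes gave 3 higher and none lower of 14 tested (median 0.60). Cldn6, a claudin of pluripotent cells, rose from 3.57, 1.73 and 1.9 CPM to 17.8 and 20.5 CPM (log2 fold change 2.95 ± 0.23, adjusted p 2.57e-10). Of the 14, 12 were higher in 2iL replicate 1 than in the mean of the other 2iL libraries, and without that library 5 were called higher, while without FA replicate 2 there was 1 fall. Apical polarity genes gave 2 higher and 2 lower of 15 (median -0.06), near the 13.2% and 10.8% of all tested genes. Podxl, the coat protein of lumens, rose from 20.1, 20.6 and 18.5 CPM to 70.4 and 70.4 CPM (log2 fold change 1.84 ± 0.26, adjusted p 1.24e-05). Cobl, an actin nucleator, fell from 165, 138 and 140.4 CPM to 13.1 and 13 CPM (log2 fold change -3.50 ± 0.26, adjusted p 3.55e-09). Rab11a was not called (log2 fold change -0.062 ± 0.084, adjusted p 0.569). Without 2iL replicate 1 the rises were 4, and without FA replicate 2 there were 3 rises and 1 fall.

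Of 20 matrix and integrin genes tested 3 were called higher and 4 lower (median -0.33), and the summed level went from 1114 to 1173 TPM in 2iL to 496.6 to 591.6 TPM in FA. The rises were Lamb1, Col4a1 and Col4a2, all basement membrane genes of the endoderm list too. Itgb3, an integrin that binds fibronectin and osteopontin, fell from 45.1, 40.7 and 42 CPM to 1.48 and 2.18 CPM (log2 fold change -4.57 ± 0.35, adjusted p 4.04e-09). Nid1, a linker of laminin and collagen IV, fell from 598, 518 and 524 CPM to 35.7 and 40.7 CPM (log2 fold change -3.84 ± 0.25, adjusted p 4.07e-10). Spp1, the osteopontin gene, fell from 395, 387 and 381 CPM to 26.1 and 47.2 CPM (log2 fold change -3.41 ± 0.26, adjusted p 7.5e-09). Fn1, which encodes the fibronectin that also coats the FA plates, fell from 2096, 1957 and 2039 CPM to 455 and 494 CPM (log2 fold change -2.10 ± 0.13, adjusted p 1.48e-11). Lamc1 was lower by just under 2-fold (log2 fold change -0.97 ± 0.11, adjusted p 1.85e-07), and without FA replicate 2 the falls were 7. Of the 14 YAP and TEAD genes 1 was called higher and 3 lower (median -0.33). Ajuba rose 2.81-fold (log2 fold change 1.49 ± 0.096, adjusted p 1.39e-11). Cyr61 fell from 44.2, 49.5 and 43.5 CPM to 10.4 and 16.6 CPM (log2 fold change -1.77 ± 0.21, adjusted p 7.46e-07).

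Glycolysis and pyruvate genes, which convert glucose to lactate or feed it to mitochondria, were called higher in 11 of 24 and lower in 4 (median 0.77), and their summed level went from 2400 to 3129 TPM in 2iL to 5230 to 5295 TPM in FA. The lactate exporter gene Slc16a3 rose from 2.42, 1.55 and 1.02 CPM to 95.6 and 74.5 CPM, 49.2-fold (log2 fold change 5.62 ± 0.44, adjusted p 1.86e-08). Pdk1, a kinase that inhibits pyruvate dehydrogenase, rose from 19.5, 13.6 and 11.5 CPM to 149.8 and 148 CPM (log2 fold change 3.31 ± 0.13, adjusted p 2.3e-14). The glucose transporter gene Slc2a1 rose from 37.2, 58.8 and 60.1 CPM to 257 and 197 CPM (log2 fold change 2.13 ± 0.27, adjusted p 5.05e-06). These genes act on glucose import, lactate export and the use of pyruvate. Pgk1 rose from 101, 120.0 and 123 CPM to 363 and 469 CPM (log2 fold change 1.86 ± 0.13, adjusted p 9.78e-11). Pkm rose from 655, 842 and 909 CPM to 2047 and 2465 CPM (log2 fold change 1.49 ± 0.11, adjusted p 1.88e-10). None of these 5 genes overlapped between the media, and nor did 4820 of all 4891 calls.

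The phosphofructokinase and lactate dehydrogenase isoenzymes moved apart, while both hexokinase genes fell. Pfkl rose from 33.8, 38.1 and 42.1 CPM to 214 and 246 CPM (log2 fold change 2.60 ± 0.088, adjusted p 5.97e-16). Pfkp fell from 341, 294 and 299 CPM to 98.2 and 148 CPM (log2 fold change -1.34 ± 0.18, adjusted p 4.75e-06). Ldha rose 2.9-fold (log2 fold change 1.53 ± 0.17, adjusted p 5.1e-07). Ldhb fell 2.34-fold (log2 fold change -1.23 ± 0.14, adjusted p 1.11e-07). The hexokinase gene Hk1 fell 3.84-fold, from 146, 129 and 123 CPM to 31.1 and 38.3 CPM (log2 fold change -1.94 ± 0.22, adjusted p 6.11e-07). Hk2 fell 2.25-fold, from 253, 303 and 301 CPM to 117 and 137 CPM (log2 fold change -1.17 ± 0.13, adjusted p 1.16e-07). Gapdh was not called (log2 fold change 0.57 ± 0.073, adjusted p 8.88e-07). The letters ACGTG, the core of the site that hypoxia-inducible factors and related proteins recognise, were in the RefSeq promoter of 14 of the 23 members with one, against 21.8% of 27025 genes. Of these 14, 6 were called higher, 2 lower and 6 were not called. Stretches upstream of the start are given for 3 genes that rose and for Hk2, which fell, with the letters of either strand in capitals. CACGTG reads the same on both strands.
Slc16a3 (chr11:120949023-120949066, plus strand): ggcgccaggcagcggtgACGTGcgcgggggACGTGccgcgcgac
Slc2a1 (chr4:119108679-119108743, plus strand): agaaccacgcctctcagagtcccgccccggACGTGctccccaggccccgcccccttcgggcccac
Ldha (chr7:46845740-46845803, plus strand): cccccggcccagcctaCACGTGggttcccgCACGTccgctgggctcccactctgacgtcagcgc
Hk2 (chr6:82774472-82774536, minus strand): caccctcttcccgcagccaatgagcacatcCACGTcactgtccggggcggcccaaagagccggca
Promoters of 4 other lists were searched in the same way. TTCNNNGAA, of the STAT type, was in 1 of 17 LIF and STAT3 members (9.55% of all genes), CCGGAAGT, of the ETS type, in 0 of 10 feedback inhibitors (4.31%), CTTTGAT, of the TCF type, in 3 of 16 Wnt members (4.29%) and AATNNACA, of the FOXH1 type, in 2 of 12 Nodal members (13.9%). CACGTG contains ACGTG, so the E-box and the shorter motif overlap, and both were looked up after the values were known.

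Nuclear genes of oxidative phosphorylation were called lower in 2 of 23 and higher in none (median -0.21). Cox7a1 fell from 13.7, 8.99 and 10.6 CPM to 2.73 and 3.13 CPM (log2 fold change -1.94 ± 0.32, adjusted p 3.2e-05). Cox5a fell from 158, 168 and 167 CPM to 68.8 and 70.5 CPM (log2 fold change -1.24 ± 0.11, adjusted p 3.14e-09). Atp5b was not called (log2 fold change -0.28 ± 0.09, adjusted p 0.0131). None of the 13 mitochondrial-genome genes was called by edgeR or DESeq2 (median -0.16), with 4 of them at an unadjusted edgeR p below 0.05 and 3 at an adjusted p below 0.05 but under 2-fold. The gene mt-Co1 was at 3134, 3431 and 3460.5 CPM and 3053 and 3870.0 CPM (log2 fold change 0.051 ± 0.13, adjusted p 0.775). A single fall was called without 2iL replicate 1, 2iL replicate 3 or FA replicate 2. In cholesterol and fatty acid synthesis 2 of 27 were called higher and none lower (median 0.47). Lss, of cholesterol synthesis, was one of them (log2 fold change 1.07 ± 0.13, adjusted p 4.45e-07) and was below 2-fold without replicate 1 of either medium. Of the list, 22 of the 27 were higher in FA replicate 1 than in replicate 2. Scd2, the most abundant uncalled member, had 880.3, 850.2 and 902 CPM and 1385 and 1317 CPM (log2 fold change 0.62 ± 0.086, adjusted p 2.18e-06).

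In threonine, glycine and serine metabolism 2 of 16 were called lower and 1 higher (median 0.15). Tdh, the threonine dehydrogenase on which mouse stem cells depend, fell from 134, 315 and 239 CPM to 7.23 and 2.37 CPM, 46-fold (log2 fold change -5.52 ± 0.50, adjusted p 1.4e-07). It was not called in an edgeR fit of the 5 reference libraries with the replicate number as a block (log2 fold change -5.44, adjusted p 0.23). Amt, a subunit of the glycine cleavage system, fell 4.37-fold (log2 fold change -2.13 ± 0.11, adjusted p 5.18e-13). Gldc, another subunit of that system, rose from 82.4, 77.6 and 72 CPM to 159 and 193 CPM (log2 fold change 1.18 ± 0.11, adjusted p 4.6e-09). Psat1 overlapped (log2 fold change 0.075 ± 0.15, adjusted p 0.705), with 2 rises called without FA replicate 2.

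Cell cycle genes were called higher in 3 and lower in 3 of 20 (median 0.11). Among the D-type cyclins, which couple growth signals to the cycle, Ccnd2 rose from 1.09, 0.833 and 0.836 CPM to 13.5 and 16.8 CPM (log2 fold change 4.00 ± 0.84, adjusted p 0.000838). Ccnd3 fell from 184, 227 and 232 CPM to 57.2 and 73.9 CPM (log2 fold change -1.71 ± 0.11, adjusted p 2.56e-11). Among inhibitors Cdkn1c rose, Cdkn1a fell 2.94-fold and Cdkn2c fell 3.32-fold (log2 fold change -1.73 ± 0.28, adjusted p 1.77e-05). Cdk4 was not called (log2 fold change 0.55 ± 0.12, adjusted p 0.000407).

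Of 18 p53 targets 1 was called higher and 4 lower (median -0.30), and 16 of the 18 were higher in FA replicate 2 than in FA replicate 1, by a median of 0.28 on the log2(CPM + 1) scale. The pro-apoptotic gene Pmaip1 rose from 13.3, 7.2 and 5.62 CPM to 48.5 and 56.4 CPM (log2 fold change 2.55 ± 0.21, adjusted p 9.53e-09). Fas fell 3.71-fold (log2 fold change -1.89 ± 0.42, adjusted p 0.000659). Bax did not differ beyond its spread (log2 fold change -0.02 ± 0.086, adjusted p 0.869), with 2 rises without FA replicate 1. Integrated stress response genes were called higher in 2 and lower in 3 of 16 (median 0.08). Chac1, a target of ATF4, rose from 9.1, 15.2 and 17.4 CPM to 45.2 and 80.9 CPM (log2 fold change 2.19 ± 0.27, adjusted p 2.36e-06). Cth fell from 110.1, 121 and 113 CPM to 24 and 52.1 CPM (log2 fold change -1.60 ± 0.25, adjusted p 4.77e-05). Slc3a2 overlapped (log2 fold change 0.16 ± 0.14, adjusted p 0.361). All 16 were higher in FA replicate 2 than in FA replicate 1, by a median of 0.72 on the log2(CPM + 1) scale, and without FA replicate 1 there were 4 rises and 1 fall.

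Interferon-type and MHC class I genes were called higher in 7 and lower in 5 of 20 (median 0.00), and 19 of the 20 were higher in FA replicate 2 than in FA replicate 1. Irf1 rose from 9.52, 11 and 9.62 CPM to 47 and 78.4 CPM (log2 fold change 2.64 ± 0.27, adjusted p 2.48e-07). The tetherin gene Bst2, on chromosome 8, rose from 25.4, 14.1 and 14.4 CPM to 54.9 and 66.9 CPM (log2 fold change 1.74 ± 0.27, adjusted p 3.91e-05). Ifitm3 fell from 34, 40.3 and 36.6 CPM to 12.1 and 14.2 CPM (log2 fold change -1.50 ± 0.10, adjusted p 5.6e-11). Ly6e overlapped (log2 fold change -0.20 ± 0.15, adjusted p 0.284). Gbp2, Ly6a and Ifitm3 belong to families of similar copies, so their reads may have been shared. Of 19 entries for microRNA cluster transcripts only 5 had enough counts to test. Mir17hg, the host of the miR-17 cluster, rose from 7.11, 7.68 and 10.5 CPM to 24.2 and 19.8 CPM (log2 fold change 1.39 ± 0.23, adjusted p 4.5e-05). The transcript 4631405K08Rik rose from at most 2 counts (at least 3.96-fold, adjusted p 0.000599). Mir290a was not called at 0.63, 0.774 and 0.79 CPM and 0.756 and 0.474 CPM (log2 fold change -0.22 ± 0.38, adjusted p 0.679).

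**Figure D4:**
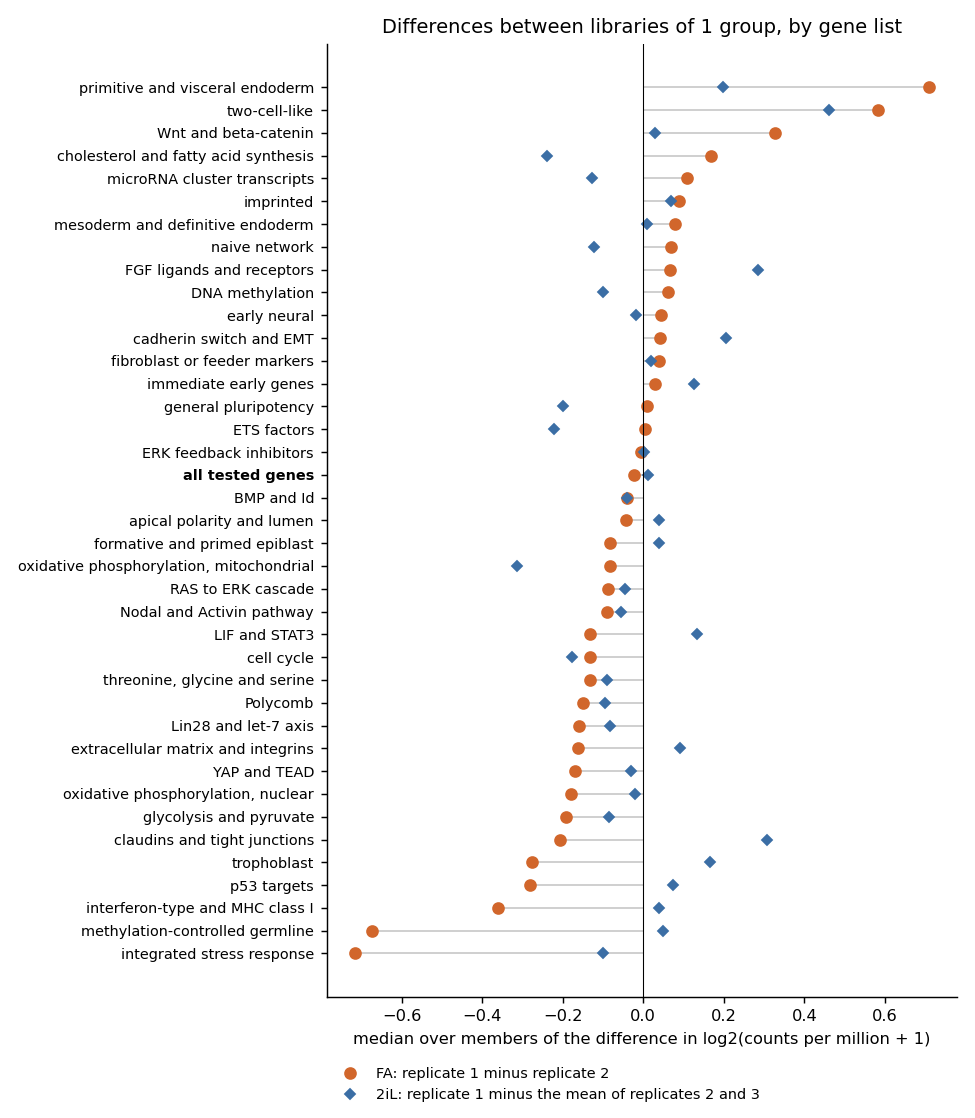
For each list, the median over tested members of the difference in log2(CPM + 1) is shown between both FA libraries (orange circles) and between 2iL replicate 1 and the mean of the other 2iL libraries (blue diamonds). Endoderm genes lie at 0.71 and integrated stress response genes at -0.72 in FA, and all tested genes at -0.02.

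By the change in level per transcript length, the largest gains among called genes were in Rnu1b1, Pkm, Mif, Eno1b, Eno1, Fth1, Rny3, Lefty1, Igfbp2 and Hist2h3c2. Pkm, a pyruvate kinase gene, went from a mean of 343 to 989.6 TPM. The cytokine gene Mif went from 287 to 843 TPM. Fth1, which encodes ferritin heavy chain, went from 284 to 670.3 TPM. The enolase genes Eno1 (198 to 601 TPM) and Eno1b (205 to 618 TPM) are near-identical copies, so their reads cannot be assigned with certainty. Igfbp2, an IGF-binding protein, rose to 354 and 739.6 CPM from 198, 210.1 and 188 CPM (log2 fold change 1.46 ± 0.19, adjusted p 2.58e-06) and was below 2-fold without FA replicate 2. Rnu1b1 and Rny3 are short non-coding RNAs whose TPM rests on a very small length, and neither reached 2-fold without 2iL replicate 2 or was called without FA replicate 2 (log2 fold change 0.51 and 0.74, adjusted p 0.284 and 0.158). Losses were largest in Hsp90aa1, Mir6236, Eif4a2, Gsta4, Spp1, Bcat1, Nanog, Eif2s2, Fn1 and Gpx1. The chaperone gene Hsp90aa1 went from 2429 to 1235 TPM (log2 fold change -1.14 ± 0.075, adjusted p 1.95e-11). The initiation factor genes Eif4a2 and Eif2s2 fell 2.24-fold and 3.28-fold. Bcat1, which starts the breakdown of branched-chain amino acids, fell from 617, 746 and 766 CPM to 143 and 173 CPM (log2 fold change -2.17 ± 0.13, adjusted p 2.82e-12). The antioxidant genes Gsta4 and Gpx1 fell 2.57-fold and 3.05-fold. Mir6236 varied from 2.97 to 26.4 CPM within 2iL, and its log2 fold change of -3.14 was not called without 2iL replicate 2 (-1.87, adjusted p 0.208), FA replicate 1 (-2.98, adjusted p 0.186) or FA replicate 2 (-3.32, adjusted p 0.135). It was also not called in the fit of the 5 reference libraries alone (adjusted p 0.0803) or when tested against a 1.5-fold minimum (adjusted p 0.0966).

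The same change of medium was compared with that in the other 3 lines, whose own libraries differ but whose differences all share the 5 reference libraries. A difference from the reference response was called in 11.9% of tested genes for the RAS-deleted ERF wild-type line, 4.27% for the ERF-knockout line and 7.55% for the line without both. Among the 4891 reference calls the difference was called for 1692 genes with RAS deleted, 653 with ERF knocked out and 891 with both, and the change was smaller than in the reference line for 1640, 623 and 763 of these. These genes were selected by a change of at least 2-fold in the same 5 libraries, which by itself favours a smaller change in the other line, so no direction is read from these counts. Over all tested genes the ERF-knockout count was 870, and 577 without FA replicate 1 of the reference line. For 2686 genes, 54.9% of the reference calls, no difference was called in any of the 3 lines, which does not show that they respond alike. By list, the naive network differed in 16 of 18 members with RAS deleted, 2 with ERF knocked out and 7 with both. The endoderm list differed in 10, 9 and 11 of 15, and the formative list in 12, 5 and 6 of 19. The feedback inhibitors differed in 6, 3 and 7 of 13, and of the 27 cholesterol genes a difference was called for 0, 0 and 1. Cubn had a smaller rise in each of the other lines. H19 had one in both lines without ERF, while with RAS deleted alone no difference was called (difference 0.59 ± 1.54, adjusted p 0.832). Jam2 fell by 6.10 on the log2 scale with ERF knocked out, where its log2 fold change with RAS deleted was -0.43, a called difference from the reference line. In the line without both it fell by 4.84, also a called difference (difference 1.67 ± 0.30, adjusted p 0.000556). Spry4 rose by 5.73 in the reference line and fell by 3.09 in the line without both.

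**Figure D5:**
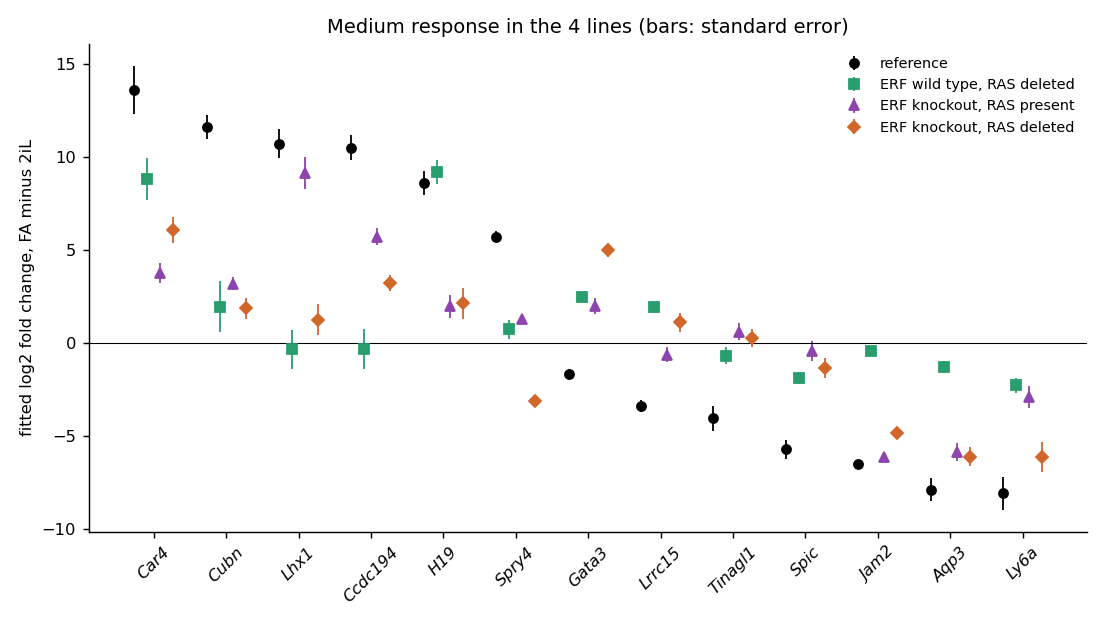
Fitted log2 fold change (FA minus 2iL) with its standard error for 13 genes in the reference line (black circles) and the other 3 lines. Gata3 fell by 1.63 in the reference line and was positive in the other 3, and the values of Car4, Cubn, Lhx1, Ccdc194 and Ly6a, which are at or near 0 counts in 1 medium, depend on the prior count.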

How the data were processed

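RNA was measured by directional, rRNA-depleted RNA-seq in 23 mouse embryonic stem cell libraries, per the labels' protocols. The deposited matrix holds whole counts per gene symbol, which equal the authors' deposited estimated counts (Salmon gene tables) rounded to whole numbers in every cell, and the TPM values and effective lengths were taken from those deposited tables. Reads were handled with bcl2fastq 2.20.0, fastp 0.20.0 and Salmon against mm10, per the submitters' processing notes, while the Salmon version and its transcript set are not given in the sources used here. Salmon divides reads among similar transcripts, so values of near-identical copies are uncertain.

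Counts of 20372 of 53607 rows (filterByExpr) were scaled by TMM and tested with edgeR 4.0.16 (R 4.3.3), by a robust quasi-likelihood fit of all 23 libraries with 1 coefficient per group and Benjamini-Hochberg adjustment over all tested genes. CPM were computed with TMM-adjusted library sizes, and the SE was derived from the fold change and its F statistic. Genes with at most 3 counts in every library of a medium were set to a floor of 3 counts per library (0.141 CPM in 2iL and 0.125 CPM in FA), from which bounds were computed. Replicates 1 to 3 are numbers in the labels with no stated meaning. Alternatives included DESeq2 1.42.0, other scalings and filters, and leaving out each library, and the code was tested on simulated data. The members and the 38 gene lists (626 genes, 624 with a row, 587 tested) were chosen with earlier results of these data known. Of these genes 37 are in more than 1 list. Named genes are Erf, Hras and Nras, for each list at least the largest called rise and fall and the most abundant uncalled member, the 12 largest rises and falls among genes of at least 5 CPM, the 10 largest TPM gains and losses, and the 3 largest differences per direction from each other line, and other members were chosen after their values were seen. Some items that this rule names are not reported here.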

Additional observations from a re-analysis of the deposited data

Results flagged for a closer look

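The medium response of the reference line was compared with that of each other line by the interaction term of the edgeR fit, and the values below are the differences on the log2 scale, other line minus reference line. They share the 5 reference libraries and so are not independent of each other. Fitted values of genes at or near 0 counts in a medium depend on the prior count and are no measure of size.

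With RAS deleted, 1692 of the reference-line calls differed. Among genes that fell in the reference line the difference was 6.59 for Aqp3, 6.08 for Jam2 and 5.81 for Ly6a, meaning a smaller fall. Among genes that rose it was -11 for Lhx1, -10.8 for Ccdc194 and -9.64 for Cubn, meaning a smaller rise or none.

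With ERF knocked out, 653 calls differed. The difference was 5.3 for Spic, 5.17 for Ly6a and 4.65 for Tinagl1, an extracellular matrix gene, and -9.85 for Car4, -8.39 for Cubn and -6.62 for H19.

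With both, 891 calls differed. The difference was 6.63 for Gata3, a trophoblast and endoderm factor, 4.51 for Lrrc15 and 4.36 for Spic, and -9.71 for Cubn, -9.44 for Lhx1 and -8.82 for Spry4. The reference groups of 3 and 2 libraries were too small to be tested for single libraries far from the rest.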

How the results depend on the processing

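The count of 4891 calls moved to 10075 without the 2-fold minimum, and the differences from the RAS-deleted, ERF-knockout and double-mutant lines to 4988, 1902 and 3640, by construction. With each reference library left out in turn the calls ranged from 4513 to 4822, with 3940 to 4477 shared, and 2211 to 2425, 577 to 1029 and 1290 to 1775 for the differences. DESeq2 called 4699 genes (4640 shared). The alternatives chosen after seeing the data gave 4639 calls without chromosome 8 genes and 4392 (3734 shared) without both reference libraries numbered 1. The deviations of same-numbered samples from their group means had r -0.0655 for number 1 and 0.00419 for number 2. With 2 FA libraries the FA deviations are mirror images, so these values cannot show whether the numbers pair the samples. The libraries numbered 1 shared the rise of chromosome 8. A fit with the replicate number as a block on the 5 reference libraries called 3889 genes, against 4142 without the block, and 3 of the named calls were not called in the blocked fit, at nearly the same log2 fold change without and with the block. They were Tdh (-5.54 and -5.44, adjusted p 0.23), Nlrc5 (1.26 and 1.24, adjusted p 0.0754) and Rnu1b1 (1.04 and 1.01, adjusted p 0.302).

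Of 229 genes named, 187 were called, and 15 of these lost the call under at least 1 alternative. None of the called genes reversed, which their choice at 2-fold or more, mostly without overlap between the media, made unlikely beforehand. Uncalled genes that changed sign had these log2 fold changes with 1 library left out. Bax lay between -0.095 and 0.025, Ctnnb1 between -0.073 and 0.071 and Ly6e between -0.64 and 0.12. Mir290a lay between -0.63 and 0.049, mt-Co1 between -0.14 and 0.19, Psat1 between -0.36 and 0.38, and Slc3a2 between -0.079 and 0.37. Sox17 lay between -0.16 and 1.53, Tex19.1 between -0.28 and 0.52, and Trim28 between -0.21 and 0.10. In the blocked fit Bax was 0.017 and Trim28 0.12. Without both libraries numbered 1, Ctnnb1 was -0.051 and Ly6e 0.096. The causes were not tested. Of 76 list counts, 1114 of 1216 values under alternatives stayed within 1.5 times, and DESeq2 called 9 of the 2-cell-like genes where edgeR called 5. With 2 FA libraries, a difference between them weighs on every call.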

Other observations

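Of the 27 list members on chromosome 8, the chromosome that stood higher in the libraries numbered 1, 10 were called: Klf2, Zfp42, Dusp4, Nkd1, Col4a1, Col4a2, Sox1, Cdh3, Nlrc5 and Bst2. Nlrc5 was not called with effective length as an offset (log2 fold change 0.72, adjusted p 0.212). Zfp42, the naive marker REX1, had 258, 267 and 283 CPM in 2iL and 36.8 and 21.2 CPM in FA (log2 fold change -3.21 ± 0.22, adjusted p 8.77e-10). Nkd1, an inhibitor of Wnt signalling, had 2.84, 2.8 and 2.69 CPM and 6.55 and 6.25 CPM (log2 fold change 1.20 ± 0.24, adjusted p 0.000245), and Cdh3, the P-cadherin gene, 7.98, 4.64 and 3.95 CPM and 21 and 20.4 CPM (log2 fold change 1.87 ± 0.22, adjusted p 4.01e-07). One library of 3 in 2iL and 1 of 2 in FA carried the rise, and its part in these calls was not tested beyond the counts given above.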
